A study of Homo sapiens with 6 samples.

Results

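The mitochondrially encoded genes are the 37 rows of the count table whose symbol starts with MT-, out of 59653 rows in all. They comprise 13 mRNAs, 2 rRNAs and 22 tRNAs, matched by symbol. RNA was sequenced from SK-OV3 cells, an established line of human ovarian cancer, harvested 48 h after siRNA was introduced at 50 nM. The siPVT1 group (3 libraries) received a pool of 4 siRNAs against the long non-coding RNA PVT1, and the siControl group (3 libraries) received a non-targeting pool. Both groups were labelled wildtype and were grown in full serum, and poly(A)-selecting mRNA libraries were made from total RNA. The labels do not say whether replicates came from separate cultures, so p-values measure the spread between these libraries, which may be technical, in 1 cell line.

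The human mitochondrial chromosome is transcribed from both strands into long polycistronic RNAs, from which rRNAs, mRNAs and the tRNAs that lie between them are cut. Its mRNAs code for subunits of respiratory complexes I, III and IV and of the ATP synthase (complex V), whose other subunits, like all proteins that copy, transcribe, process and translate the mitochondrial genome, are made from nuclear genes. The mRNAs for ATP8 and ATP6, and those for ND4L and ND4, are bicistronic, and ND6 is the mRNA read from the other strand.

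The junctions below separate the genes whose levels moved differently, or hold bases that 2 genes share. They were read from the plus strand of the mitochondrial chromosome of GRCh38, the build of the count table, with gene limits from GENCODE v44. The stretch chrM:3200-3336 runs from the end of MT-RNR2 to the start of MT-ND1, with MT-TL1, the leucine tRNA gene that holds the binding site of the terminator MTERF1, in capitals.
MT-RNR2 to MT-ND1: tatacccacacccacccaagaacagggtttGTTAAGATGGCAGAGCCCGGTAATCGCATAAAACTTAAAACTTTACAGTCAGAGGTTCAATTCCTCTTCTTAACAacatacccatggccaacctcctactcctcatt
The end of MT-ND2 and all of MT-TW (capitals) fill chrM:5482-5579, and chrM:5826-5933 holds MT-TY and the first 30 bases of MT-CO1 (capitals). Between MT-ND2 and MT-CO1 lie 392 bases with 5 tRNA genes, 4 of them on the minus strand.
MT-ND2 to MT-TW: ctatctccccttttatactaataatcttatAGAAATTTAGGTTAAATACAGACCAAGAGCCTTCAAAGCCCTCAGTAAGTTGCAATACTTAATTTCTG
MT-TY to MT-CO1: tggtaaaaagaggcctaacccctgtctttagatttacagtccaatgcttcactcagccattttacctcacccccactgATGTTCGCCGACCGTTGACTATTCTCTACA
MT-ATP8 and MT-ATP6 share 46 bases and MT-ND4L and MT-ND4 share 7, in capitals in chrM:8507-8592 and chrM:10730-10796.
MT-ATP8 and MT-ATP6: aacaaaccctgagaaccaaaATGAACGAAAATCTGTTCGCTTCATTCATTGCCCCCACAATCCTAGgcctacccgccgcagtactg
MT-ND4L and MT-ND4: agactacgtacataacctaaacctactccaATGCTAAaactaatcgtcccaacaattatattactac
MT-ND5 ends where MT-ND6, on the opposite strand, ends, and chrM:14119-14178 shows that meeting point with the last 30 bases of MT-ND6 in capitals as the plus strand reads them.
MT-ND5 and MT-ND6: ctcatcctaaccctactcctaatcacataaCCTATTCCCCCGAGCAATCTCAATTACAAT

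Normalized PVT1 counts were 3279, 4179 and 3374 in siControl and 2334, 2111 and 2047 in siPVT1, which do not overlap (log2 fold change −0.74, SE 0.102, adjusted p = 0.000467 by edgeR's quasi-likelihood test). Library totals ranged from 28383171 to 35059576 counts, of which 1648557 to 2452909 fell in the mitochondrial genes, and 11094 of 19008 genes tested passed an adjusted p under 0.05. Keratin mRNAs KRT8 and KRT18 of the epithelial line were at 7977 to 9074 and 8120 to 8901 normalized counts in siControl. In siPVT1 they were at 10300 to 11110 and 10635 to 11299. Both were thus higher without overlap, by 0.31 and 0.36 on the log2 scale (adjusted p = 0.00408 and 0.000965 by edgeR's quasi-likelihood test). EPCAM was low at 41.0 to 130 and overlapped. Other markers of the line differed between the groups by edgeR's quasi-likelihood test, KRT19 at 247 to 277 and 809 to 1700 (log2 fold change 2.28, adjusted p = 0.00013), PAX8 at 2640 ± 44.4 and 5230 ± 607 (0.99, adjusted p = 4.17e-05) and ERBB2 at 1254 ± 55.0 and 924 ± 32.5 (−0.44, adjusted p = 0.000648; SD, n = 3). Of 7 markers of other cell types, the leukocyte markers PTPRC and CD3E, the erythroid HBB and the fibroblast DCN had at most 2 counts in any library, whereas the endothelial CDH5 and PECAM1 and the fibroblast COL1A1 were detected and were higher in siPVT1 (summed 2130 to 2199 in siControl, 8973 to 11233 in siPVT1). The long non-coding RNA MALAT1 took 0.251% to 0.358% of the counts in siControl and 0.197% to 0.366% in siPVT1. NEAT1 took 0.0915% to 0.115% and 0.0425% to 0.116%. Both overlapped between the groups, and siPVT1 replicate 3 had the lowest share of each. Genes with a count numbered 26772 to 27146 in siControl and 25165 to 25676 in siPVT1, and histone genes, most of whose mRNAs lack poly(A) tails, took 0.0157% to 0.0166% and 0.00880% to 0.00958% of the counts. The part of these differences in the results below was not tested.

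As a share of the library total, the 13 mitochondrial mRNAs together were higher in siPVT1 and the 2 rRNAs were lower, while the share of all 37 genes together overlapped between the groups. The 13 mRNAs took 3.53%, 3.77% and 3.32% of the counts in the siControl libraries and 4.59%, 5.37% and 5.98% in the siPVT1 libraries. Every siPVT1 library thus lay above every siControl library, by 1.50-fold on average (p = 0.1 by a two-sided exact permutation test, which cannot give less with 3 libraries a group). The rRNAs took 1.98%, 2.04% and 1.94% in siControl and 1.16%, 1.12% and 1.01% in siPVT1, 1.81-fold lower without overlap (exact permutation p = 0.1). All 37 genes took 5.51%, 5.81% and 5.26% against 5.75%, 6.49% and 7.00%, where siPVT1 replicate 1 lay below siControl replicate 2 (exact permutation p = 0.2). Of the mitochondrial counts, 36.0% ± 0.948 (SD, n = 3) were rRNA in siControl and 17.3% ± 2.82 (SD, n = 3) in siPVT1. The widest 95% Wilson interval of these shares was ± 0.00886 percentage points, which covers counting error only.

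By complex, the mRNA share of the library total was higher in each siPVT1 library than in any siControl library for all 4 complexes. Complex I (7 mRNAs), which takes electrons from NADH, held 1.52% ± 0.118 of the counts in siControl and 1.94% ± 0.216 in siPVT1, 1.27-fold higher. Complex III, here MT-CYB alone, held 0.232% ± 0.0178 and 0.451% ± 0.0608, 1.94-fold higher. The 3 mRNAs of complex IV, cytochrome c oxidase, held 1.41% ± 0.0701 and 2.28% ± 0.318, 1.60-fold higher, and the 2 of complex V held 0.373% ± 0.0232 and 0.649% ± 0.102, 1.73-fold higher (SD, n = 3 for each). Each difference had an exact permutation p of 0.1. The size of the difference was therefore smallest for the complex whose 7 mRNAs include MT-ND1, MT-ND2 and MT-ND6.

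**Figure D1:**
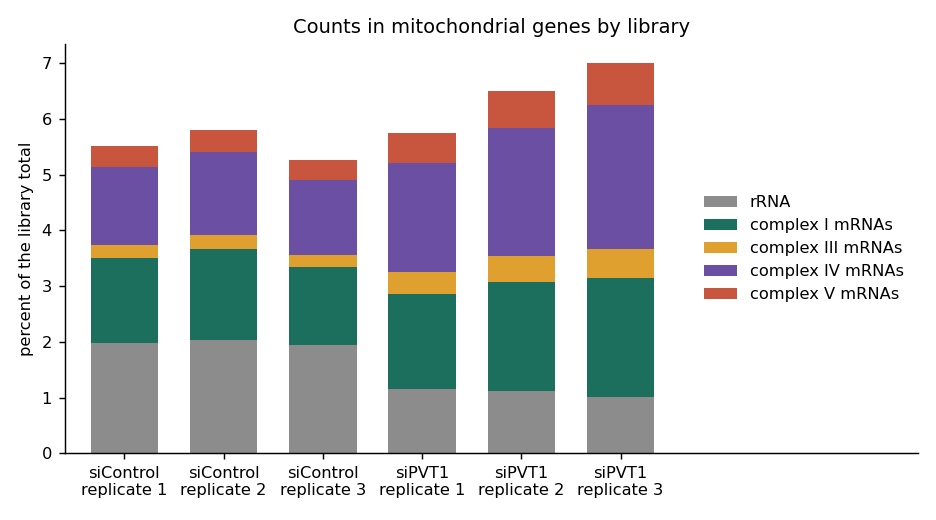
Percent of the library total (y axis) in the mitochondrial rRNAs and in the mRNAs of each complex, stacked, for each of the 6 libraries. The rRNA block falls from about 1.99% in siControl to 1.10% in siPVT1 on average, while the mRNA blocks together grow from 3.54% to 5.32%.

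Counts normalized to the nuclear genes gave the same directions with larger rises, because nuclear TMM factors and library totals differ. Scaling by the total moved the median of all genes tested from −0.013 to −0.15 on the log2 scale, and 10 of the 13 mRNAs were higher and 3 lower under both. The same change of scaling took the genes with an adjusted p under 0.05 from 5543 higher and 5551 lower to 4477 higher and 6879 lower, so the folds below are relative to a median nuclear gene. On the nuclear scale the summed mRNAs were 1.64-fold higher, complex I 1.40-fold, complex III 2.13-fold, complex IV 1.76-fold and complex V 1.90-fold, and the rRNAs 1.65-fold lower, each without overlap (exact permutation p = 0.1). The sum of all 37 genes, which overlapped as a share of the total, did not overlap on this scale, with 1653497, 1701376 and 1569016 normalized counts in siControl against 1880334, 2110736 and 2287798 in siPVT1, 1.27-fold higher (exact permutation p = 0.1). Amounts of mitochondrial DNA, mitochondria per cell and RNA per mitochondrion were not measured, so more transcript of each and more mitochondria cannot be told apart.

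Of the 37 genes, 20 passed the filter on low counts, and 12 of these had an adjusted p under 0.05 by edgeR's quasi-likelihood test, against 58.4% of all genes tested. The 10 that rose were all mRNAs, against a background of 29.2% of genes higher, and the 2 that fell were the rRNAs, against 29.2% lower. With a fold change of at least 2 also required, 4 genes were called, against 21.4% of all genes tested: MT-ATP8, MT-CO3 and MT-CYB rose (background 11.6%) and MT-RNR1 fell (background 9.85%). Of the 3 mRNAs, MT-ATP8 alone stayed past both under scaling by the library total, and MT-CYB alone without siPVT1 replicate 3. The median log2 fold change of the 13 mRNAs was 0.73, against −0.013 over all genes tested. Groups did not overlap for 10 of 13 mRNAs, all higher, where 66.3% of all genes did not overlap and 32.8% were higher without overlap.

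Complex IV mRNAs code for the catalytic core of cytochrome c oxidase, and all 3 rose. MT-CO1 (chrM:5904-7445) had 246100, 261805 and 236025 normalized counts in siControl and 359875, 414764 and 463166 in siPVT1. MT-CO2 (chrM:7586-8269), the subunit that takes electrons from cytochrome c, had 78435, 78878 and 74487 against 110648, 128926 and 145519. All siPVT1 values of both genes exceeded all siControl values, and both log2 fold changes were 0.73 (SE 0.0924 and 0.0947, adjusted p = 0.000275 and 0.00032 by edgeR). MT-CO3 (chrM:9207-9990) had 96033, 95831 and 92637 against 168505, 202399 and 238277. Its siControl libraries lay close together, and its log2 fold change of 1.10 was the largest of the 3 (SE 0.114, adjusted p = 9.76e-05 by edgeR).

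Complex III and complex V mRNAs rose by amounts near those of MT-CO3. MT-CYB (chrM:14747-15887), cytochrome b, which carries electrons within complex III, had 70533, 72642 and 63505 normalized counts in siControl and 126515, 149172 and 166039 in siPVT1. The groups did not overlap, with a log2 fold change of 1.10 (SE 0.102, adjusted p = 5.9e-05 by edgeR). MT-ATP6 (chrM:8527-9207), which forms part of the proton path of ATP synthase, had 99799, 104576 and 93377 against 158581, 189935 and 210071. MT-ATP8 (chrM:8366-8572), a small subunit of its membrane part, had 11643, 11629 and 11112 against 18619, 24600 and 33717. Both rose without overlap, MT-ATP6 by 0.91 (SE 0.101, adjusted p = 0.000148) and MT-ATP8 by 1.16 on the log2 scale (SE 0.185, adjusted p = 0.000973 by edgeR). The siPVT1 libraries of MT-ATP8 spread most, relative to their mean, among the mRNAs called, from 18619 to 33717. Since the 2 genes share 46 bases and 1 transcript, their sum is the safer quantity, and it was 110712 ± 5892 in siControl and 211841 ± 33375 in siPVT1 (SD, n = 3), 1.90-fold higher.

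Within complex I, 4 of the 7 mRNAs rose and 3 did not pass the test. MT-ND4 (chrM:10760-12137), a proton-pumping subunit, had 169288, 177155 and 151753 normalized counts in siControl and 300691, 327780 and 333016 in siPVT1. It had the smallest adjusted p of the 13 mRNAs (log2 fold change 0.95, SE 0.0724, adjusted p = 2.24e-05 by edgeR). MT-ND4L (chrM:10470-10766), on the same mRNA, had 13076, 13931 and 11325 against 21772, 25396 and 28969, a log2 fold change of 0.99 (SE 0.116, adjusted p = 0.000187 by edgeR). The log2 fold changes of these partners thus differed by less than the SE of either. MT-ND3 (chrM:10059-10404) had 12760, 12003 and 11793 against 16773, 19121 and 20383, and MT-ND5 (chrM:12337-14148), another pumping subunit, had 50511, 54701 and 46578 against 65525, 80770 and 93582. Both rose without overlap, by 0.62 (SE 0.0782, adjusted p = 0.000273) and 0.66 (SE 0.125, adjusted p = 0.00236) on the log2 scale by edgeR.

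The other 3 complex I mRNAs overlapped between the groups. MT-ND1 (chrM:3307-4262), near the site where ubiquinone is bound, had 96981, 105063 and 89335 normalized counts in siControl and 70559, 81811 and 98913 in siPVT1. MT-ND2 (chrM:4470-5511), a pumping subunit, had 110055, 111926 and 103158 against 81529, 98503 and 119822. In both genes siPVT1 replicates 1 and 2 lay below every siControl library and siPVT1 replicate 3 alone within or above them. The log2 fold changes were −0.21 (SE 0.120, adjusted p = 0.163) and −0.12 (SE 0.125, adjusted p = 0.454 by edgeR). MT-ND6 (minus strand, chrM:14149-14673) had 4029, 4320 and 3779 against 2177, 3494 and 4863, so its siPVT1 libraries reached from well below to above the siControl range (log2 fold change −0.20, SE 0.243, adjusted p = 0.507 by edgeR). Without siPVT1 replicate 3 all 3 genes had an adjusted p under 0.05, at −0.34, −0.26 and −0.51, and without siPVT1 replicate 1 MT-ND2 and MT-ND6 stood at 0.016 and 0.054. Under total-count scaling MT-ND1 passed as well, at −0.35 (adjusted p = 0.0369).

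**Figure D2:**
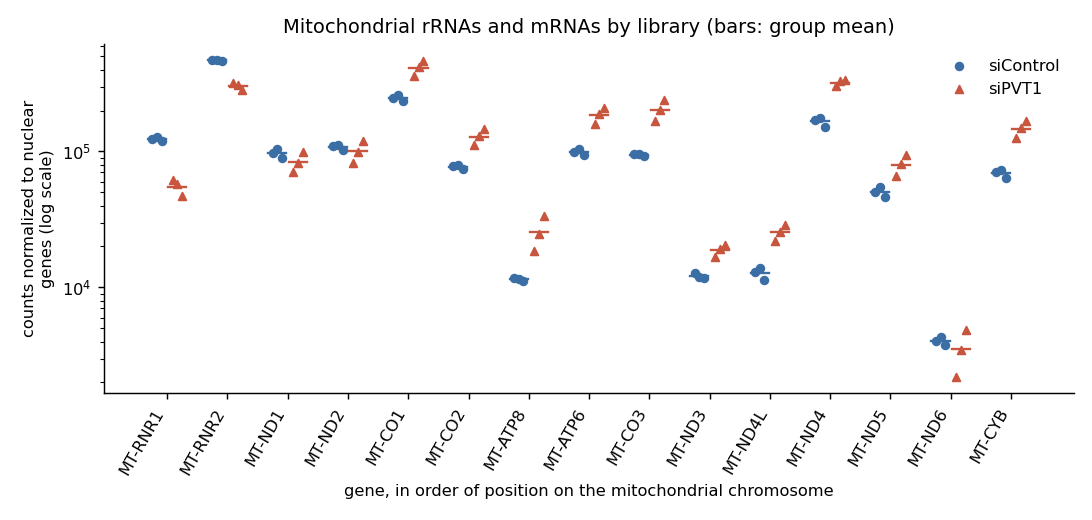
Counts normalized to nuclear genes (y axis, log scale) of the 2 rRNAs and 13 mRNAs in chromosomal order (x axis), with 1 point per library and a bar at each group mean. The siPVT1 triangles lie below the siControl circles for the rRNAs, mix with them for MT-ND1, MT-ND2 and MT-ND6, and lie above them for the other 10 mRNAs.

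Both mitochondrial rRNAs, the RNA parts of the mitochondrial ribosome, fell. MT-RNR1 (chrM:648-1601), the small-subunit rRNA, had 122800, 127898 and 119849 normalized counts in siControl and 61688, 57219 and 46636 in siPVT1, a log2 fold change of −1.16 (SE 0.0990, adjusted p = 3.8e-05 by edgeR). MT-RNR2 (chrM:1671-3229), the large-subunit rRNA, had 471427, 468943 and 460279 against 316834, 306804 and 284773, a log2 fold change of −0.62 (SE 0.0547, adjusted p = 4.3e-05 by edgeR). The groups were far apart for both, and the library with the highest mRNA sum, siPVT1 replicate 3, had the lowest count of both rRNAs. MT-RNR1 counts per MT-RNR2 count were 0.265 ± 0.00710 in siControl and 0.182 ± 0.0160 in siPVT1 (SD, n = 3), without overlap. Poly(A) selection recovers rRNA in part only, so these counts are not the cellular rRNA amount, and in all 3 siPVT1 libraries the histone share was also lower, whose part in the rRNA fall was not tested.

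The 22 tRNA genes had few counts. Their sum ranged from 26 to 74 counts a library, no tRNA gene exceeded 20 counts, 15 had at most 3 in every library and 7 had none, which allows a share of up to 1.06e-05% of the shallowest library for each. The highest mean counts were those of MT-TS1 (4, 11 and 5 counts in siControl and 7, 12 and 20 in siPVT1), MT-TV (2, 16 and 8 against 10, 7 and 8) and MT-TF (8, 15 and 2 against 5, 1 and 6). All 3 overlapped between the groups. Of the 5 tRNA genes tested, none had an adjusted p under 0.05 by edgeR, 2 had an unadjusted p under 0.05 (MT-TL1 and MT-TA), and DESeq2 called none. The smallest adjusted p was 0.0544, for MT-TL1. Without siControl replicate 2, which had the highest tRNA sum, MT-TS1 passed both thresholds (1.62, adjusted p = 0.0388 by edgeR), and under total-count scaling MT-TL1 did (−1.27, adjusted p = 0.0366 by edgeR).

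The mRNAs did not keep their proportions. Within the summed 13 mRNAs, MT-ND1 made up 9.16%, 9.51% and 9.03% in siControl and 4.70%, 4.68% and 5.06% in siPVT1. MT-ND2 went from 10.3% ± 0.161 to 5.73% ± 0.357 and MT-ND6 from 0.385% ± 0.00580 to 0.198% ± 0.0519 (SD, n = 3). These 3 shares were lower in every siPVT1 library. Those of MT-CO3 (9.04% ± 0.347 to 11.7% ± 0.484), MT-CYB (6.55% ± 0.120 to 8.48% ± 0.0581), MT-ATP8, MT-ATP6, MT-ND4L and MT-ND4 were higher in every siPVT1 library, each with an exact permutation p of 0.1 (0.144 after Benjamini-Hochberg adjustment over the 13 mRNAs). MT-CO1 (23.6% ± 0.330 and 23.8% ± 0.150), MT-CO2 (7.36% ± 0.199 and 7.40% ± 0.0374), MT-ND3 and MT-ND5 overlapped. Although MT-ND1 on the nuclear scale overlapped between groups, its count per MT-CYB count was 1.41 ± 0.0357 in siControl and 0.567 ± 0.0251 in siPVT1 (SD, n = 3), so the spread of MT-ND1 among siPVT1 libraries followed that of MT-CYB.

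Along the plus strand the log2 fold changes went from the lowest at MT-RNR1 through MT-RNR2, MT-ND1 and MT-ND2 to values from 0.62 to 1.16 for all mRNAs from MT-CO1 on. Over the 2 rRNAs and 12 plus-strand mRNAs, the log2 fold change correlated with the distance from the start of MT-RNR1 at Pearson r = 0.85 and Spearman rho = 0.65, across 14 genes that share libraries and a primary transcript. Over the 12 mRNAs r was 0.71 and rho 0.45, and over the 10 from MT-CO1 on r was 0.21 and rho 0.042. The relation thus rests on the 4 genes before the cluster of 5 tRNA genes printed in part above and not on a trend within the rest. These genes were grouped after their values were seen, and no test was made of that grouping.

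**Figure D3:**
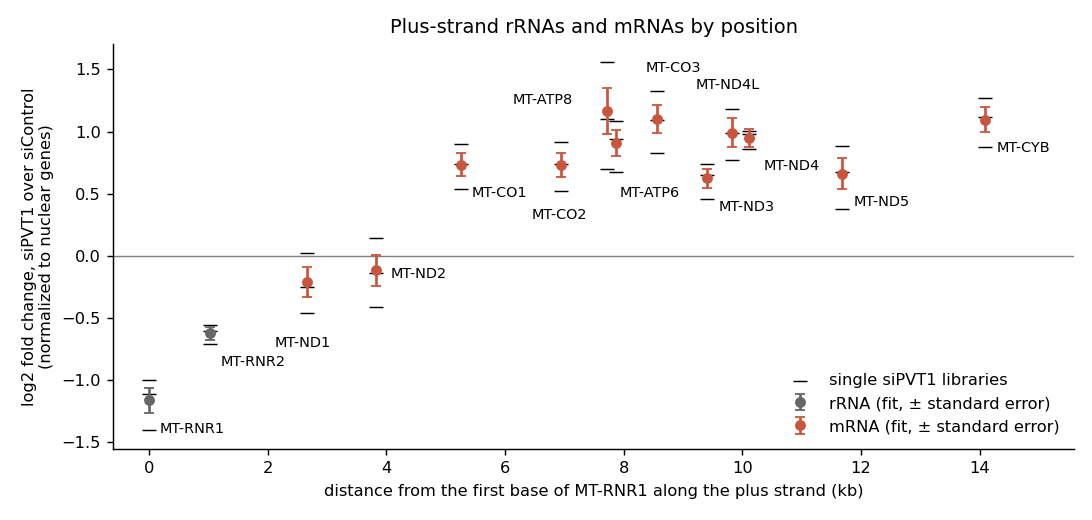
Log2 fold change of siPVT1 over siControl normalized to nuclear genes (y axis) against distance from the first base of MT-RNR1 along the plus strand in kb (x axis). Points with error bars are fitted values ± SE, and dashes are single siPVT1 libraries over the siControl mean. The 4 genes before MT-CO1 lie under 0 and the 10 from MT-CO1 on lie between 0.62 and 1.16.

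By normalized counts per kb of whole gene, on the nuclear scale, the order of the 13 genes in siControl was MT-CO1, MT-ATP6, MT-CO3, MT-ND4, MT-CO2, MT-ND2, MT-ND1, MT-CYB, MT-ATP8, MT-ND4L, MT-ND3, MT-ND5 and MT-ND6. MT-CO1 stood at 160815 ± 8425 normalized counts per kb and MT-ND6 at 7700 ± 516 (SD, n = 3). Neighbours whose libraries overlapped were MT-CO1 and MT-ATP6, MT-CO3 and MT-ND4, MT-ND4 and MT-CO2, MT-ND2 and MT-ND1, and MT-CYB and MT-ATP8. In siPVT1 the order was MT-ATP6, MT-CO1, MT-CO3, MT-ND4, MT-CO2, MT-CYB, MT-ATP8, MT-ND2, MT-ND1, MT-ND4L, MT-ND3, MT-ND5 and MT-ND6. MT-ND2 and MT-ND1 had passed below MT-CYB (95923 ± 18414, 87616 ± 14935 and 129046 ± 17382 counts per kb), and neighbours overlapped throughout except MT-ND4 above MT-CO2, MT-CO2 above MT-CYB, MT-ND4L above MT-ND3 and MT-ND5 above MT-ND6. A 75-base read lies wholly inside MT-ATP8 (207 bases) at only 133 positions, MT-ND4L (297 bases) at 223 and MT-ND3 (346 bases) at 272. Division by whole gene length therefore places these short genes too low, and both orders depend on that choice. MT-ATP8 and MT-ATP6 share 1 mRNA, as do MT-ND4L and MT-ND4, so their places are not levels of separate mRNAs.

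The nuclear-encoded subunits of the same complexes moved less. Of 75 subunits listed for complexes I, III, IV and V, all tested, 27 rose and 14 fell at an adjusted p under 0.05 by edgeR (29.2% of all genes in each direction). None passed both thresholds, against 21.4% of all genes tested. Their median log2 fold change was 0.10, against 0.73 for the 13 mitochondrial mRNAs. The 37 of complex I split into 9 higher and 11 lower (median 0.017), while the 11 of complex IV had 9 higher and 0 lower (median 0.35), led by COX7C at 0.61. Complex III had 5 higher (UQCRC2, UQCRH, UQCRB, UQCRC1 and UQCR11, from 0.19 to 0.34) and 2 lower (CYC1 at −0.45 and UQCRFS1 at −0.36, the cytochrome c1 and iron-sulfur subunits) of 9 (median 0.19). Complex V had 4 higher (ATP5F1A, ATP5MK, ATP5F1E and ATP5MC2, from 0.23 to 0.43) and 1 lower (ATP5PB at −0.34) of 18 (median 0.088). The summed nuclear subunits of complex IV were 24014 ± 1963 normalized counts in siControl and 30425 ± 484 in siPVT1, and those of complex I were 51042 ± 2943 and 50002 ± 2041 (SD, n = 3), which overlapped.

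Within each library, mitochondrial mRNA counts per count of the nuclear subunits of the same complex were higher in siPVT1 for every complex. For complex I the ratio was 8.62, 10.1 and 7.96 in siControl and 11.5, 12.9 and 13.4 in siPVT1, 1.42-fold higher. For complex III it was 3.03, 3.58 and 2.77 against 5.37, 6.36 and 6.90, 1.99-fold higher. Neither pair of groups overlapped. For complex IV, whose nuclear subunits rose too, it was 16.7, 20.1 and 16.1 against 21.2, 24.8 and 27.3, 1.39-fold higher, and for complex V it was 1.94, 2.21 and 1.82 against 3.15, 3.82 and 4.01, 1.83-fold higher. Over all 4 complexes the ratio rose from 6.90 ± 0.776 to 10.7 ± 1.11 (SD, n = 3), 1.55-fold. Each of these 5 differences had an exact permutation p of 0.1. These ratios use the summed nuclear subunits. Against the median nuclear subunit of each complex the groups did not overlap either. The folds were then 1.46 for complex I, 2.45 for complex III, 1.53 for complex IV and 1.67 for complex V. The complex with the smallest rise thus depends on that choice. The ratio uses counts, not molecules, so its level depends on gene lengths and only its change between groups is compared.

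**Figure D4:**
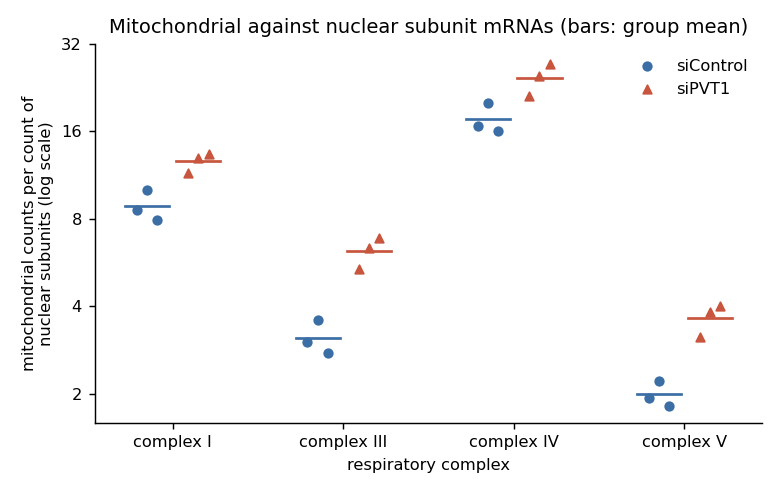
Mitochondrial mRNA counts per count of the nuclear subunits of the same complex (y axis, log scale) for complexes I, III, IV and V (x axis), with 1 point per library and a bar at each group mean. Nuclear subunits are summed, and the siPVT1 libraries lie above the siControl libraries in all 4 complexes, by 1.39-fold in complex IV to 1.99-fold in complex III.

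Most nuclear genes listed for mitochondrial transcription and RNA processing fell. Of 9 transcription genes, 7 fell and 1 rose at an adjusted p under 0.05 by edgeR (median log2 fold change −0.60, against −0.013 over all genes tested). Among all genes tested, 29.2% fell and 29.2% rose at that threshold, and 9.85% fell past both thresholds. POLRMT, the mitochondrial RNA polymerase, had 1051, 890 and 988 normalized counts in siControl and 682, 682 and 716 in siPVT1, and fell by 0.49 on the log2 scale (SE 0.0796, adjusted p = 0.00103 by edgeR). TFAM, which packages mitochondrial DNA and bends it at promoters, had 3657, 3234 and 3655 against 1961, 2435 and 3019, and fell by 0.51 (SE 0.143, adjusted p = 0.0160 by edgeR). Neither gene overlapped between the groups. The initiation factor TFB2M fell by 1.09, and MTERF2 (−1.45) and the elongation factor TEFM (−1.21) were the lowest of the 4 members past both thresholds, MTERF3 (−1.08) being the other. TFB1M, an rRNA methyltransferase of the small subunit whose rRNA is MT-RNR1, was the member that rose, from 692 ± 17.2 to 1186 ± 139 (SD, n = 3), by 0.78 on the log2 scale.

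Of 33 genes of mitochondrial RNA processing, modification and decay, 29 fell and 0 rose at an adjusted p under 0.05 by edgeR (median log2 fold change −0.58). The background over all genes tested was 29.2% lower and 29.2% higher. Of the 33 genes, 3 also fell by 2-fold or more, a share close to the 9.85% of all genes tested. PRORP, the nuclease subunit of the enzyme that cuts the 5′ ends of tRNAs, had the only value above 0 (0.21, adjusted p = 0.0734 by edgeR). HSD17B10, another subunit of that enzyme, fell from 847 ± 66.1 to 266 ± 45.4 normalized counts (SD, n = 3), by 1.67 on the log2 scale. MRM1, which methylates MT-RNR2, fell by 1.68, and FASTKD3, an RNA-binding protein of mitochondria, by 1.01. LRPPRC, which with SLIRP binds and stabilizes mitochondrial mRNAs, had 9142, 8836 and 9069 against 5581, 5828 and 6493. The groups did not overlap for LRPPRC (−0.60, SE 0.0661, adjusted p = 0.000143 by edgeR) or for SLIRP (−0.50, adjusted p = 0.0180 by edgeR).

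Lists for DNA replication, translation and biogenesis control were more mixed. Of 17 replication genes, 8 fell and 4 rose by edgeR (median log2 fold change −0.43). Among all genes tested 29.2% fell and 29.2% rose, and 9.85% fell and 11.6% rose past both thresholds, which is also the background for the next lists. In the replication list 2 genes fell past both thresholds, and 2 translation factors did, shares close to that background. ATAD3B (−1.39) and the helicase TWNK (−1.14) fell by 2-fold or more, DGUOK, TOP1MT, TK2 and RRM2B rose by 0.38 to 0.63, and the polymerase subunit POLG stood at 0.030 (adjusted p = 0.697). Of 18 translation factors, 8 fell and 0 rose (median −0.22), with TACO1, an activator of MT-CO1 translation, at −1.12 and the initiation factor MTIF2 at −1.01. Of 12 regulators of mitochondrial biogenesis, 11 were tested, 7 fell and 2 rose (median −0.41). The coactivators PPRC1, PPARGC1B and PPARGC1A fell by 1.29, 1.13 and 0.68, GABPB1 by 1.20, NRF1 by 0.41 and ESRRA by 0.33 on the log2 scale. PPARGC1A was low in both groups, at 52.9 ± 2.58 and 33.1 ± 4.35 normalized counts (SD, n = 3). GABPA stood at 0.14 (adjusted p = 0.0922 by edgeR). The 2 that rose were low in both groups, ESRRG at 7.34 ± 2.45 and 25.2 ± 11.0 normalized counts and TFEB at 26.5 ± 4.16 and 63.5 ± 16.9 (SD, n = 3), by 1.74 and 1.26 on the log2 scale.

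**Figure D5:**
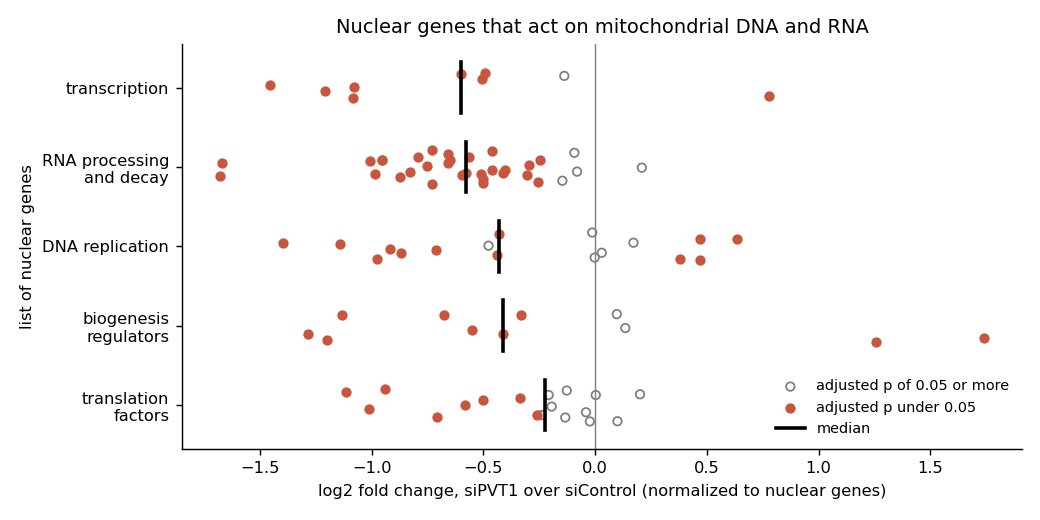
Log2 fold change of siPVT1 over siControl normalized to nuclear genes (x axis) of each tested gene in 5 lists of nuclear genes that act on the mitochondrial genome (y axis, spread at random within a list), filled where the adjusted p was under 0.05, with a bar at the list's median. All 5 medians lie below 0, from −0.60 for transcription to −0.22 for translation factors.

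Reads of some mitochondrial genes can also be placed on nuclear copies. Of 408 annotated pseudogene copies in the table, 31 had more than 3 counts in any library, and all copies together held 19164 to 35986 counts a library, 1.12% to 1.47% of the mitochondrial counts. MTATP6P1 held most, 14352 to 30133 counts or 13.1% to 14.3% of MT-ATP6 in the same library, and moved with it (log2 fold change 0.84, against 0.91 for MT-ATP6). MTND2P28 (−0.084, against −0.12 for MT-ND2) and MTCO1P12 (0.75, against 0.73 for MT-CO1) held the next most. MTND1P23, at 50 to 225 counts and named after its values were seen, went apart from its parent (−1.24, adjusted p = 0.00193 by edgeR, against −0.21 for MT-ND1). Of all 75-base stretches of MT-CO1, 36.6% occur unchanged in a copy, as do 34.4% of MT-ND2, 28.0% of MT-ATP6 and 16.3% of MT-ND1. The share was 14.6% for MT-CO3, 10.5% for MT-CO2, 7.10% for MT-ND6 and 0.173% for MT-ND5. No such stretch was found in MT-RNR1, MT-RNR2, MT-ND3, MT-ND4L, MT-ND4, MT-ATP8 or MT-CYB. Counts of the genes with shared stretches are therefore uncertain by how reads were divided. The strand setting of the counting is not given in the sources used here, so reads of MT-ND6 and of the transcript opposite to it cannot be told apart, and MT-ND6 per MT-ND5 count (0.0800 ± 0.00109 in siControl and 0.0428 ± 0.00938 in siPVT1, SD, n = 3) carries that limit.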

How the data were processed

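The authors aligned 75-base single-end reads with STAR 2.7.3a to the GENCODE transcriptome of GRCh38.p13 and counted them with Salmon 0.14.1, per the submitters' processing notes, and the deposited values are their estimated counts, whole numbers that were not normalized. They were fitted unchanged with edgeR 4.0.16 (R 4.3.3, quasi-likelihood test, siRNA as the only term). Library sizes and TMM factors came from nuclear genes only. The filter asked for 5 or more normalized counts in 3 or more libraries and left 19008 genes. P-values were Benjamini-Hochberg adjusted over all of these, and calls used an adjusted p under 0.05, alone or together with a log2 fold change of 1 or more in size. SE was derived as the size of the log2 fold change over the root of its F statistic. Normalized counts are counts over the nuclear effective library size, relative to the mean size. Shares and ratios were compared by two-sided exact permutation tests.

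All 37 symbols matched GENCODE v44, and ATP5MJ, ATP5MK and MTRFR were found under older symbols through RefSeq's synonyms. Members, matched by symbol, and gene lists were chosen with earlier results of these data known. The genes named are all 13 mRNAs and 2 rRNAs, the 3 highest tRNAs and pseudogene copies, 12 nuclear regulators and, per list, the 2 highest and 2 lowest past both thresholds. Other nuclear subunits and machinery genes named with a value, MT-TL1 and MT-TA, and MTND1P23, were chosen after their values were seen. DESeq2 1.42.0, other scalings, filters, the replicate block and each library left out were alternatives. Replicates differed beyond sampling noise (chi-square per degree of freedom 1.75 to 5.67 within siControl, 8.62 to 45.3 within siPVT1), so each library counts as 1 sample. The tests were checked first on simulated data with few genes changed, equally many up and down. In these data most genes tested passed an adjusted p under 0.05, so that check does not cover the scaling here. The result for 1 marker gene is left out.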

Additional observations from a re-analysis of the deposited data

How the results depend on the processing

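Of the comparisons, lists and counts recomputed, 318 values kept their direction and side of the threshold or stayed within 1.5 times the count, and 15 counts moved. Shares and ratios, whose exact permutation p cannot go below 0.1, could not cross the threshold, so only their direction was open to change. Of the values for single mitochondrial genes, 286 held, 5 changed sign, 7 came to pass the threshold and 5 no longer did. The 5 lost were MT-CO1, MT-CO2, MT-ATP6, MT-ND4L and MT-ND4, all on the 13 mRNAs, and the 7 gained were of MT-ND1, MT-ND2 and MT-ND6, each lower. Mitochondrial genes higher by both thresholds numbered 3, but 1 under scaling by the library total (MT-ATP8), 0 when normalized to the 13 mRNAs and 1 to 5 with a library left out: 1 without siPVT1 replicate 3 (MT-CYB), and 5 without siPVT1 replicate 1 or siControl replicate 2. Higher by adjusted p alone went from 10 to 3 when normalized to the 13 mRNAs (10 to 11 with a library left out). Lower by both thresholds went from 1 to 2 under total scaling and 3 on the 13 mRNAs, and lower by adjusted p alone from 2 to 4 under total scaling, 6 on the 13 mRNAs and 2 to 5 with a library left out (5 without siPVT1 replicate 3). On the 13 mRNAs MT-ND3 and MT-ND5 turned to −0.099 and −0.068. That scaling sets their sum equal in all libraries by construction. With a library left out MT-ND2 ranged from −0.26 to 0.016 and MT-ND6 from −0.51 to 0.054, both above 0 without siPVT1 replicate 1, and the log2 difference of MT-CO2 within the 13 mRNAs ranged from −0.014, without siControl replicate 2, to 0.024. Translation factors that fell went from 8 to 13 under total scaling (6 to 11 with a library left out), and those that rose from 0 to 1, as did RNA processing genes (0 to 1), without siPVT1 replicate 1 or, for translation factors, replicate 3. The cause of these moves was not tested. Alternatives for the nuclear lists and for shares within the 13 mRNAs were added after seeing the data.

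Same-numbered libraries of the groups did not deviate together (r = −0.037, 0.028 and 0.0020), so no pairing by number was visible. With so few libraries, and a wider spread within siPVT1, these correlations cannot exclude a pairing. With the replicate block 10465 genes passed an adjusted p under 0.05, against 11094, and the block changed no call of a mitochondrial gene, with 3 higher and 1 lower by both thresholds. With a library left out no permutation p could go below 0.2. The tRNAs, at most 20 counts each, were too low for firm statements.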
